A study of Mus musculus with 6 samples.

Results

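The 10 genes described here are IL-1 family cytokines, their receptors, and the inflammasome genes that process them, namely Il1a, Il1b, Il1rn, Il1r1, Il1r2, Il1rl1, Il33, Il18, Nlrp3, and Casp1. They were chosen by exact symbol among the 26167 genes of the expression tables, and all 10 were found and passed the filter on low counts. The tissue was Hepa1-6 tumor (Hep1-6 in the labels), a mouse hepatoma cell line grown under the skin of female C57BL/6J mice of 6 to 8 weeks with no engineered allele named. The Sora group (tumors 2, 3, and 4) had received sorafenib (Sora), an inhibitor of several kinases, at 10 mg/kg ip on days 9, 11, 13, and 15 after implantation, and the control group (tumors 1, 3, and 4) had not. What the control mice were injected with and the day these tumors were taken are not given in the sources used here. Each library held the RNA of a whole tumor, so hepatoma cells and the stroma and immune cells of the host were read together. In such bulk RNA, fewer cells of a type and less RNA per cell cannot be told apart. The labels number the tumors without saying that each came from its own mouse, and p-values therefore measure only the spread between these samples.

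IL-1 is an alarm cytokine of injured and infected tissue. IL-1α (Il1a) and IL-1β (Il1b) bind the same receptor (Il1r1), which recruits an accessory chain (Il1rap) and signals through MyD88 and IRAK kinases to NF-κB. The pathway is held back by a receptor antagonist (Il1rn) that occupies the receptor without activating it, and by a decoy receptor (Il1r2) that binds IL-1 without signaling. IL-1β and IL-18 (Il18) are made as inactive precursors and are cut by caspase-1 (Casp1), which is activated on inflammasomes such as that built on Nlrp3, whereas IL-33 (Il33) is a nuclear alarmin released by damaged cells and read by ST2 (Il1rl1). In tumors, IL-1β is mainly a product of myeloid cells and can draw neutrophils through CXC chemokines.

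The libraries held 31073830 to 36205814 counted reads, and each of the 10 genes had between 214 and 3706 reads in each tumor. The count table used here holds 5 tumors, and the whole counts of Sora tumor 4 were computed from its FPKM. Sora tumor 3 stood apart from the other Sora tumors. In CPM (reads scaled to library size) it was the Sora tumor nearest to the control mean for 46.3% of all genes tested. In FPKM it was the nearest for 8 of these 10, a measure unlike that of the share. Casp1, 1 of the 8, was nearest in CPM in Sora tumor 4 (44.4, against 43.2 in Sora tumor 3 and a control mean of 55.4). For these 10 genes, calls that were lost or gained without one of the Sora tumors are given with that fit. The hepatoma label was checked with 7 markers, which had reads in every tumor. Alb ranged from 974 to 1680 FPKM and Hnf4a from 15.8 to 32.3 FPKM over the 6 tumors. Within this list Alb fell (log2 fold change -0.55, adjusted p = 0.041, edgeR), whereas Hnf4a (0.80, adjusted p = 0.013) and Apoa1 (1.03, adjusted p = 0.047) rose in Sora tumors. Over all genes tested, 1.94% rose and 1.34% fell. Alb, Hnf4a, and Apoa1 did not pass without Sora tumor 4 (adjusted p = 0.17, 0.082, and 0.15, edgeR), where only 0.0306% of all genes did.

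In Sora tumors the IL-1 receptor antagonist gene rose and the caspase-1 gene fell. Il1rn was 1.43-fold higher and Casp1 was 0.739 times the control level, and the other 8 genes did not pass an adjusted p of 0.05 (edgeR's quasi-likelihood test with Benjamini-Hochberg adjustment over all 16513 genes tested). This is 2 of 10 genes, where 3.29% of all genes passed (1.94% rose and 1.34% fell). Il1b and Il1r2 had larger fold changes than Il1rn, 1.70 and 1.54, with adjusted p of 0.083 and 0.056. Il33 was 1.23-fold higher and Il18 was 0.744 times the control level, neither past the threshold. Il1a, Il1r1, Il1rl1, and Nlrp3 lay within 1.08-fold of the control level. At an unadjusted p under 0.05, 6 of the 10 passed (Il1b, Il1rn, Il1r2, and Il33 higher, and Il18 and Casp1 lower), where 17.2% of all genes did. The groups did not overlap in CPM for Il1rn, Il1r2, and Casp1, which is 3 of 10 and close to the 22.2% of all genes that were separated. The median log2 fold change of the 10 genes was 0.077, beside -0.00037 over all genes tested.

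**Figure D1:**
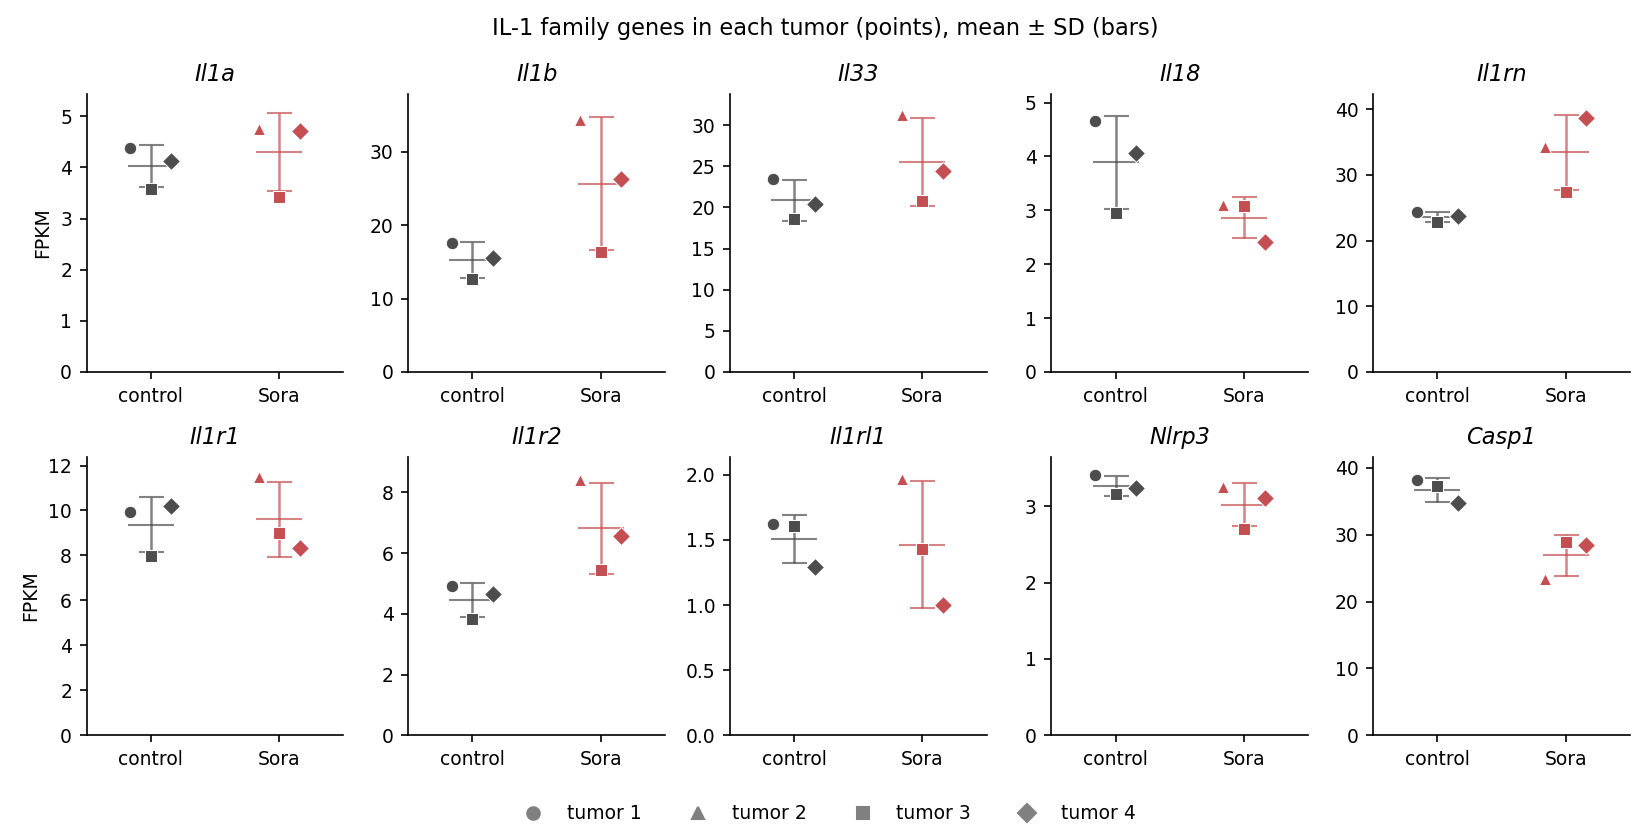
Expression in FPKM (vertical axes, each starting at 0) of the 10 genes in 3 control and 3 Sora tumors. Points are tumors, with a marker shape for the number in the label, which is not known to pair tumors between the groups. Bars are the mean and SD. Il1rn and Il1r2 have each Sora tumor above each control tumor, Casp1 has each below, and Il1b is high in Sora tumors 2 and 4 (34.4 and 26.2 FPKM) and not in tumor 3 (16.3).

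Per length, Casp1 had the highest level of the 10 genes, with a mean of 31.8 FPKM over the 6 tumors, although in Sora tumors its mean of 26.9 FPKM was below that of Il1rn (33.5). It was followed by Il1rn (28.6), Il33 (23.2), and Il1b (20.5). Il1r1 came next at 9.49 FPKM and Il1r2 at 5.64 FPKM. Il1a (4.16), Il18 (3.38), and Nlrp3 (3.14) were lower, and Il1rl1 was the lowest at 1.49 FPKM. In control tumors the ranges of neighbors in this order overlapped for Il1rn and Il33, for Il1r2 and Il1a, for Il1a and Il18, and for Il18 and Nlrp3, and the other neighbors were separated. In Sora tumors the overlapping neighbors were Casp1 and Il1rn, Il1rn and Il33, Il33 and Il1b, Il1r1 and Il1r2, and Il18 and Nlrp3. The antagonist gene was thus expressed above the agonist genes Il1b and Il1a per length on average, and the signaling receptor Il1r1 above its decoy Il1r2 in every tumor.

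Of the ligands that activate the receptor, Il1b (chromosome 2, 129364569 to 129371164 of GRCm38.p6) had 17.6, 12.7, and 15.5 FPKM in control tumors 1, 3, and 4 and 34.4, 16.3, and 26.2 FPKM in Sora tumors 2, 3, and 4. Sora tumors 2 and 4 were above all control tumors, and Sora tumor 3 lay within the control range. The log2 fold change was 0.76 (standard error 0.22, 95% confidence interval 0.29 to 1.24, adjusted p = 0.083, edgeR). Without Sora tumor 3 it was 1.01 and passed the threshold (adjusted p = 0.0031, edgeR), without Sora tumor 4 it was 0.73 (adjusted p = 0.27, edgeR), and without Sora tumor 2 it was 0.51 (adjusted p = 0.26, edgeR). In DESeq2 with all 6 tumors the adjusted p was 0.16. Without a filter on low counts Il1b passed with all 6 tumors (0.76, adjusted p = 0.0020, edgeR), so it was called only without Sora tumor 3 or without the filter among the alternatives run. Il1a (chromosome 2, 129299609 to 129310186), which lies next to Il1b and is active without cleavage by caspase-1, had 4.37, 3.58, and 4.13 FPKM in control tumors and 4.76, 3.41, and 4.71 FPKM in Sora tumors. The groups overlapped, with a log2 fold change of 0.11 (95% confidence interval -0.26 to 0.48, adjusted p = 0.81, edgeR). The upper bound of this interval, a 1.39-fold rise, is under the 1.70-fold estimate for Il1b, but the difference between both genes was not itself tested.

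Il1rn (chromosome 2, 24336860 to 24351491), the gene of the receptor antagonist, had 24.3, 22.8, and 23.8 FPKM in control tumors and 34.3, 27.4, and 38.7 FPKM in Sora tumors. The control tumors lay close together and every Sora tumor was above them, tumor 3 by the least. Il1rn rose from 23.6 ± 0.774 to 33.5 ± 5.71 FPKM (SD, n = 3 tumors per group). The log2 fold change was 0.52 (standard error 0.12, 95% confidence interval 0.26 to 0.78, adjusted p = 0.041, edgeR). The adjusted p was 0.0028 without Sora tumor 3, 0.17 without Sora tumor 4, 0.12 without Sora tumor 2, and 0.093 to 0.11 without a control tumor, while the log2 fold change stayed between 0.38 and 0.65. DESeq2, the tool of the study's methods, gave a log2 fold change of 0.52 and an adjusted p of 0.00077. The study also required a difference of more than 2-fold, and Il1rn did not reach this fold limit. The reads were counted per gene, so the secreted and intracellular forms of the antagonist, which start at different promoters, are summed in these values.

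The decoy receptor Il1r2 and the signaling receptor Il1r1 are neighbors on chromosome 1 (40084692 to 40125230 and 40222480 to 40316201). Il1r2 had 4.92, 3.84, and 4.64 FPKM in control tumors and 8.42, 5.46, and 6.57 FPKM in Sora tumors, and each Sora tumor was above each control tumor. Its log2 fold change was 0.62 (standard error 0.16, 95% confidence interval 0.28 to 0.97, adjusted p = 0.056, edgeR). Il1r2 passed the threshold in DESeq2 (adjusted p = 0.0047) and without Sora tumor 3 (0.011, edgeR), and not without Sora tumor 4 (0.19, edgeR). Il1r1 had 9.95, 7.97, and 10.2 FPKM in control tumors and 11.5, 9.002, and 8.33 FPKM in Sora tumors. These values overlapped, and the log2 fold change was 0.05 (95% confidence interval -0.21 to 0.31, adjusted p = 0.88, edgeR), which leaves room for a change of up to 1.24-fold. With DESeq2, 3 of the 10 genes passed (Il1rn, Il1r2, and Casp1), where 7.71% of all genes did. Each of these 3 fell short of the study's fold limit.

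**Figure D2:**
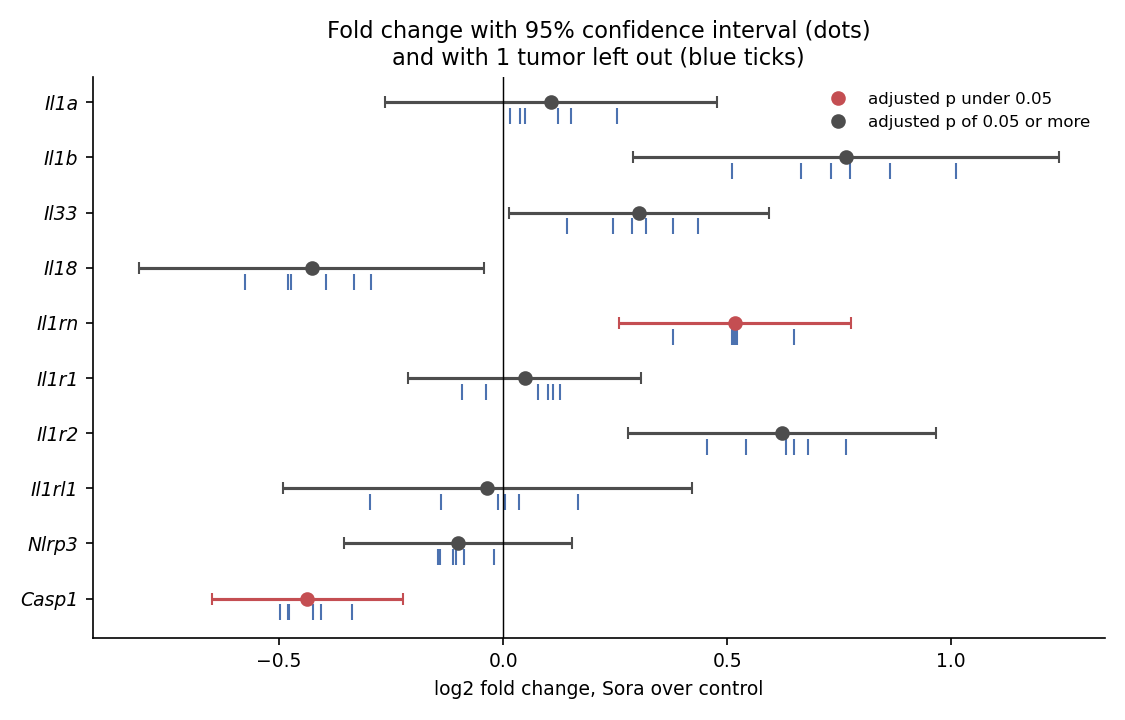
Log2 fold change of Sora over control tumors (horizontal axis) for each of the 10 genes, with dots and bars for the edgeR estimate and its 95% confidence interval and blue ticks for the 6 estimates with 1 tumor left out. Il1rn and Casp1, in red, had an adjusted p under 0.05. The ticks of Il1b, Il33, Il18, Il1rn, Il1r2, Il1a, Nlrp3, and Casp1 stay on one side of 0, and those of Il1r1 and Il1rl1 fall on both sides.

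The alarmin Il33 (chromosome 19, 29925113 to 29960718) had 23.5, 18.6, and 20.5 FPKM in control tumors and 31.3, 20.8, and 24.4 FPKM in Sora tumors. Sora tumors 2 and 4 were above the control tumors and tumor 3 was within their range, the same pattern as in Il1b. The log2 fold change was 0.30 (95% confidence interval 0.01 to 0.59, adjusted p = 0.26, edgeR), and without Sora tumor 3 it was 0.44 (adjusted p = 0.045, edgeR). Without Sora tumor 2 it was 0.14 (adjusted p = 0.71, edgeR) and without Sora tumor 4 it was 0.32 (adjusted p = 0.48, edgeR). Its receptor gene Il1rl1 (chromosome 1, 40404864 to 40465418), which encodes ST2 of mast cells, type 2 innate lymphoid cells (ILC2), and a subset of Treg cells as well as a soluble form, had 1.62, 1.60, and 1.29 FPKM in control tumors and 1.97, 1.43, and 0.998 FPKM in Sora tumors. The Sora tumors spanned the whole control range, with the highest and the lowest value of all 6. The log2 fold change was -0.04 (95% confidence interval -0.49 to 0.42, adjusted p = 0.96, edgeR), and its sign turned without Sora tumor 4 (0.17) and without control tumor 1 or 3.

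Casp1 (chromosome 9, 5298517 to 5307281), the protease that matures IL-1β and IL-18, had 38.2, 37.2, and 34.7 FPKM in control tumors and 23.4, 28.8, and 28.5 FPKM in Sora tumors. Every Sora tumor was below every control tumor. Casp1 fell from 36.7 ± 1.80 to 26.9 ± 3.06 FPKM (SD, n = 3). The log2 fold change was -0.44 (standard error 0.10, 95% confidence interval -0.65 to -0.22, adjusted p = 0.038, edgeR). With 1 tumor left out the log2 fold change lay between -0.50 and -0.34, and the adjusted p was 0.028 without Sora tumor 3, 0.10 without Sora tumor 4, 0.13 without Sora tumor 2, and 0.072 to 0.11 without a control tumor. Il18 (chromosome 9, 50554700 to 50581841), a substrate of caspase-1, had 4.66, 2.95, and 4.06 FPKM in control tumors and 3.10, 3.07, and 2.42 FPKM in Sora tumors. Control tumor 3 lay within the range of the Sora tumors, and the log2 fold change was -0.43 (95% confidence interval -0.81 to -0.04, adjusted p = 0.23, edgeR). The sensor Nlrp3 (chromosome 11, 59541569 to 59566955) had 3.41, 3.16, and 3.23 FPKM in control tumors and 3.24, 2.70, and 3.11 FPKM in Sora tumors, which overlapped (log2 fold change -0.10, 95% confidence interval -0.36 to 0.15, adjusted p = 0.72, edgeR).

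The number of genes called depended on single tumors. Without Sora tumor 3, 5 of the 10 passed (Il1b, Il1rn, Il1r2, Il33, and Casp1), where 7.03% of all genes did. Without Sora tumor 4, a fit that rests on the deposited counts alone, none of the 10 passed in edgeR, where 0.0306% of all genes did. At an unadjusted p under 0.05, 4 of the 10 passed in that fit, as did 1944 of the 16319 genes tested. Il1rn and Casp1 passed in DESeq2 on the same 5 tumors, where 478 of all genes did. None passed in edgeR without Sora tumor 2, where 0.718% of all genes did, or without control tumor 1 (1.07%), 3 (1.94%), or 4 (1.08%). In these 4 fits 4 or 5 of the 10 had an unadjusted p under 0.05, and so did 2039 to 2829 of all genes.

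Of the 4 genes with the smallest p, Il1rn and Casp1 passed, and Il1r2 and Il1b did not. Reads were counted per gene, so the start sites used in these tumors are not known. Windows around listed start sites of these 4 genes are shown so that the sequences can be compared. They are RefSeq promoters of GRCm38.p6 matched by symbol, 250 bases before to 50 bases after a start, written 5′ to 3′ on the strand of the gene. Capitals mark matches on either strand to the AP-1 motif TGANTCA, the STAT motif TTCNNNGAA, or the TATA box TATAAA. Of the 3 starts listed for Il1rn the most upstream is shown. They lie at chr2:129371090-129371389 (minus strand) for Il1b, chr2:24336610-24336909 (plus) for Il1rn, chr1:40085843-40086142 (plus) for Il1r2, and chr9:5298267-5298566 (plus) for Casp1.
Il1b: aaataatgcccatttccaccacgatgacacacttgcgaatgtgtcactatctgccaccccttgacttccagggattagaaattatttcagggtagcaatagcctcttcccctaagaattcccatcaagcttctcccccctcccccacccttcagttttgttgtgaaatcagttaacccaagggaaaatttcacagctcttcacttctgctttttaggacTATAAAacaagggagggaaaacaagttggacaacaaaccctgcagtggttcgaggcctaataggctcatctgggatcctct
Il1rn: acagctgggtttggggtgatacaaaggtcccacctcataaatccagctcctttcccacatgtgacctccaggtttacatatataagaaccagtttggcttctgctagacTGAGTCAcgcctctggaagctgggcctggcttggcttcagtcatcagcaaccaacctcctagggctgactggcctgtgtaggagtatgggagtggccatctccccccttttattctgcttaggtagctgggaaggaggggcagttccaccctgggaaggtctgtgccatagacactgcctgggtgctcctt
Il1r2: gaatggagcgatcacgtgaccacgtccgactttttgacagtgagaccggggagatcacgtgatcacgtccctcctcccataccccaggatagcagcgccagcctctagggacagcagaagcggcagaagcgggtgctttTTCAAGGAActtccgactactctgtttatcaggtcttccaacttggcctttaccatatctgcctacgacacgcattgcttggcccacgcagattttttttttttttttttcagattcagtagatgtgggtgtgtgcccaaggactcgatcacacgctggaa
Casp1: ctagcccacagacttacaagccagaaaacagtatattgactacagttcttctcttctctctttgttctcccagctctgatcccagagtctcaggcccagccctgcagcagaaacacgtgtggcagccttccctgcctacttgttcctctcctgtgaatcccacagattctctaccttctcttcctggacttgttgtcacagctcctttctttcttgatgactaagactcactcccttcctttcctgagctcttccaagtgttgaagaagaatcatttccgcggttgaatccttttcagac
The Il1b window holds a TATA box 31 bases before the start, the Il1rn window holds 1 AP-1 motif, and the Il1r2 window holds 1 STAT motif. Of the Il1rn starts not shown, 1 has a TATAAA match 14 bases after the start. TATAAA occurred in 13.6%, TTCNNNGAA in 8.3%, and TGANTCA in 7.81% of the 32851 promoter windows of the table. The NF-κB consensus (8.46% of windows) and the interferon response motif GAAANNGAA (8.56%) were searched as well and had no match in these 4 windows, which says only that these letters are not in them. Over the 16 windows of all 10 genes, the NF-κB consensus was found at starts of Il1r1 and Nlrp3, and TGANTCA was also found at Il1a.

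Ratios within a tumor, 4 of an inhibitor to the gene it opposes and 1 of a ligand to its receptor, do not depend on scaling between tumors. The Il1r2 to Il1r1 ratio of FPKM was 0.494, 0.482, and 0.456 for control tumors 1, 3, and 4, against 0.732, 0.606, and 0.789 for Sora tumors 2, 3, and 4. The decoy receptor gene was thus higher relative to the signaling receptor gene in each Sora tumor. Its log2 difference of 0.56 had a p of 0.1 (two-sided exact permutation test), which no comparison of 3 tumors with 3 can go below, and it lay between 0.48 and 0.67 with 1 tumor left out. The Il1rn to Il1a ratio was 5.56, 6.36, and 5.76 for control tumors, against 7.21, 8.03, and 8.23 for Sora tumors, which did not overlap either (log2 difference 0.41, exact permutation test, p = 0.1). The Il1rn to Il1b ratio was 1.38, 1.80, and 1.54 for control tumors, against 0.998, 1.68, and 1.48 for Sora tumors. These values overlapped, with a log2 difference of -0.21 (exact permutation test, p = 0.5). The antagonist gene was above Il1b per length in 5 of the 6 tumors and level with it in Sora tumor 2. The ratio of Il18bp, the soluble inhibitor of IL-18, to Il18 (log2 difference -0.11, exact permutation test, p = 0.8) and that of Il33 to Il1rl1 (0.36, exact permutation test, p = 0.2) overlapped as well. Adjusted over the 5 ratios, the smallest p of the exact permutation test was 0.25.

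**Figure D3:**
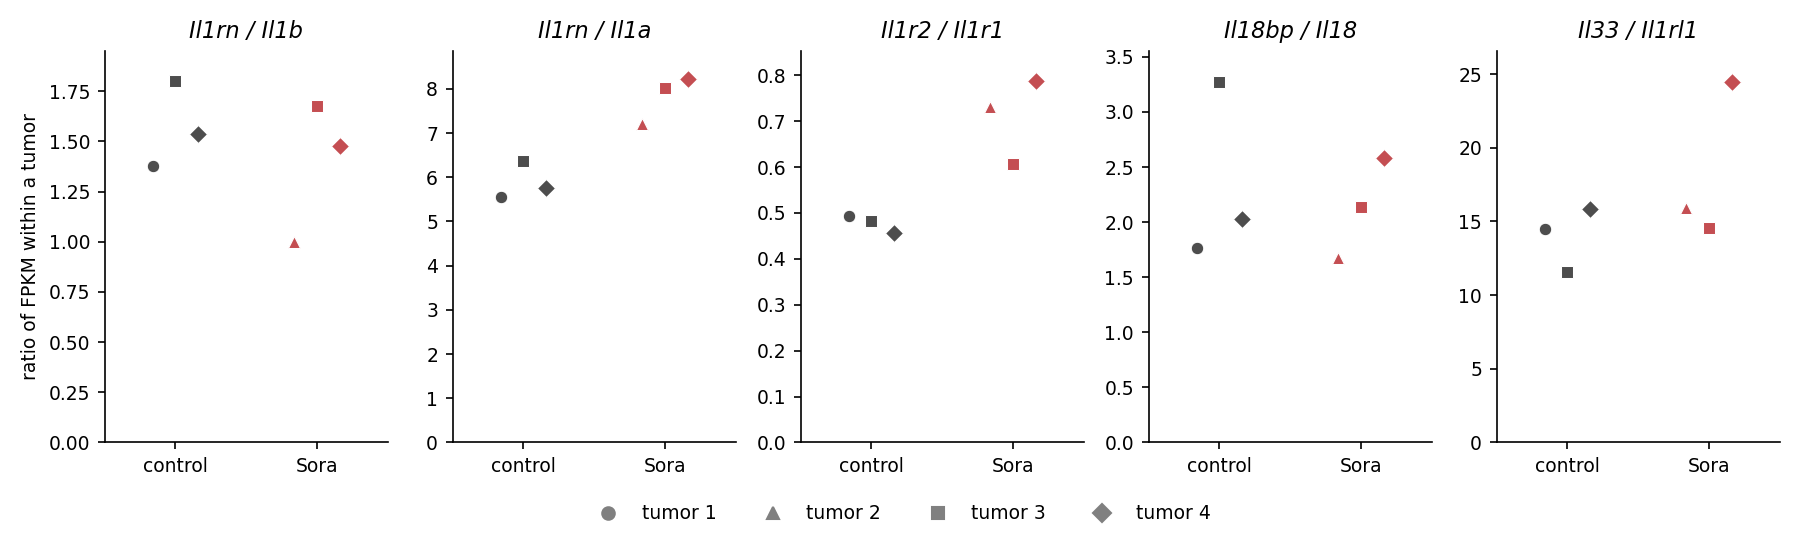
Ratio of the FPKM of 2 genes in the same tumor (vertical axes, each starting at 0), for 3 control and 3 Sora tumors shown as points with a marker shape for the number in the label. Il1r2 to Il1r1 (0.606 to 0.789 in Sora, 0.456 to 0.494 in control) and Il1rn to Il1a are separated between the groups, and the other 3 ratios overlap.

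Of the other IL-1 family ligands, receptors, and inhibitors, 11 were in the table and 10 were tested, of which 1 rose and 1 fell, where 1.94% of all genes rose and 1.34% fell. The median log2 fold change was 0.04. Il18bp fell. It had 8.21, 9.65, and 8.22 FPKM in control tumors and 5.20, 6.56, and 6.25 FPKM in Sora tumors, with no overlap (log2 fold change -0.52, standard error 0.11, adjusted p = 0.037, edgeR). Sigirr, an IL-1 receptor relative that dampens signaling, rose. It had 31.5, 35.9, and 32.3 FPKM in control tumors and 48.1, 39.4, and 50.3 FPKM in Sora tumors, again with no overlap (log2 fold change 0.48, standard error 0.11, adjusted p = 0.042, edgeR). With 1 tumor left out, Il18bp passed only without Sora tumor 3, and Sigirr only without Sora tumor 3 or control tumor 3. Without Sora tumor 4 the adjusted p was 0.12 for Il18bp and 0.19 for Sigirr (edgeR), where only 0.0306% of all genes passed. The IL-18 receptor gene Il18r1 had the next smallest p, with lower values in each Sora tumor (log2 fold change -0.45, adjusted p = 0.070, edgeR), and Il1rap overlapped between the groups (0.21, adjusted p = 0.60, edgeR). Il18r1 passed in DESeq2 (adjusted p = 0.024). The other chain of the IL-18 receptor, Il18rap, overlapped between the groups and had a positive log2 fold change (0.14, adjusted p = 0.69, edgeR). The IL-36 genes reached at the most 9.72 CPM in a tumor (Il36g in Sora tumor 2), where Il1a had 9.33 CPM.

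None of 20 tested inflammasome and pyroptosis genes other than Nlrp3 and Casp1 passed in edgeR, where 3.29% of all genes did, and 7 had an unadjusted p under 0.05, where 17.2% of all genes did. The median log2 fold change was -0.0044. Txnip, which can bind Nlrp3, had the smallest p and lay lower in each Sora tumor (111, 87.1, and 111 FPKM in control and 69.8, 86.6, and 71.2 FPKM in Sora tumors). Its log2 fold change was -0.43 (adjusted p = 0.052, edgeR), and it passed in DESeq2 (0.0013). The ATP-gated channel P2rx7 (-0.27, adjusted p = 0.10) and the channel Panx1 (-0.36, adjusted p = 0.15, edgeR) followed, both with groups that did not overlap. The adaptor Pycard and the pore-forming Gsdmd overlapped between the groups, with log2 fold changes of -0.05 and -0.15 (edgeR, adjusted p = 0.90 and 0.44). In edgeR Txnip passed without a filter on low counts, with 10 counts in every tumor, and without control tumor 3, and both Txnip and P2rx7 passed without Sora tumor 3. The sensor Nlrc4, in contrast, had higher values in each Sora tumor (log2 fold change 0.35, adjusted p = 0.19, edgeR).

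None of the 16 genes of the chain from MyD88 to NF-κB passed in edgeR, where 3.29% of all genes did, and 2 had an unadjusted p under 0.05, where 17.2% of all genes did. None passed in DESeq2, where 7.71% of all genes did, or in limma voom (2 at an unadjusted p under 0.05 in each). These shares are close to those of all genes. Their median log2 fold change was 0.0075. Tollip, an inhibitor of IRAK signaling, had 32.5, 36.2, and 33.8 FPKM in control tumors and 38.6, 39.6, and 39.2 FPKM in Sora tumors (log2 fold change 0.21, adjusted p = 0.19, edgeR). Irak2 had a log2 fold change of -0.26 (adjusted p = 0.21, edgeR), Nfkb1 had 0.13 (0.48), and Myd88 had -0.12 (0.53).

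Of 23 tested genes known to respond to IL-1, 4 rose and 1 fell, where 1.94% of all genes rose and 1.34% fell. The median log2 fold change was 0.23, beside -0.00037 over all genes tested. These genes also respond to TNF, IL-17, and microbial products, so the list does not single out IL-1. The neutrophil chemokine gene Cxcl2 had 3.37, 2.63, and 3.54 FPKM in control tumors and 17.4, 4.72, and 11.9 FPKM in Sora tumors (log2 fold change 1.84, adjusted p = 0.028, edgeR). As in Il1b, Sora tumor 3 was the lowest and Sora tumor 2 the highest of its group. Lcn2, an iron-binding protein of the acute response, had 2.51, 2.60, and 2.66 FPKM in control tumors and 6.90, 6.35, and 4.78 FPKM in Sora tumors (log2 fold change 1.22, adjusted p = 0.019, edgeR). Nfkbiz, an IL-1-inducible cofactor of NF-κB, had 11.9, 10.95, and 11.01 FPKM in control tumors and 15.4, 14.7, and 16.7 FPKM in Sora tumors (log2 fold change 0.48, adjusted p = 0.016, edgeR). Sora tumor 4 was the lowest of its group for Lcn2, and the Sora tumors lay close together for Nfkbiz. Cxcl3 rose as well (log2 fold change 0.50, adjusted p = 0.047, edgeR), whereas Vcam1, an adhesion molecule of endothelium, fell (-0.37, adjusted p = 0.029, edgeR). The acute phase gene Saa3 (log2 fold change 1.02) and the matrix protease gene Mmp3 (0.52) had higher values in each Sora tumor, with adjusted p of 0.055 and 0.059 (edgeR). Saa3 was 34.0, 37.4, and 37.9 FPKM in control tumors and 50.1, 57.5, and 111 FPKM in Sora tumors, highest in Sora tumor 4, and its lowest log2 fold change with 1 tumor left out, without that tumor, was 0.55 (adjusted p = 0.096, edgeR). Saa3 passed without Sora tumor 2 (adjusted p = 0.041) and without Sora tumor 3 (0.030, edgeR). Without Sora tumor 4 none of the 5 called genes passed in edgeR, where 0.0306% of all genes did. In that fit 8 genes of the list had an unadjusted p under 0.05, as did 1944 of the 16319 genes tested. DESeq2 on the same 5 tumors called 5 genes of the list (Vcam1, Nfkbiz, Mmp3, Saa3, and Lcn2), and 478 of all genes. In edgeR none passed without control tumor 4 either, where 8 had an unadjusted p under 0.05, as did 2530 of all genes. In edgeR 1 gene of the list passed without Sora tumor 2 (Saa3) or without control tumor 1, 3 did without control tumor 3, and 7 did without Sora tumor 3. The groups did not overlap in CPM for 10 of the 23 tested genes of the list, where 22.2% of all genes were separated. They are the 7 named so far and Il6, Ccl2, and Tnfaip3. The cytokine gene Il6 was low, at 0.280, 0.342, and 0.533 FPKM in control tumors and 0.987, 0.817, and 0.591 FPKM in Sora tumors (log2 fold change 1.04, adjusted p = 0.22, edgeR). The monocyte chemokine gene Ccl2 (-0.21, adjusted p = 0.23) and Tnfaip3, an inhibitor of NF-κB (0.20, adjusted p = 0.35, edgeR), did not pass either. The groups overlapped for the other genes tested, among them Cxcl1 (log2 fold change -0.14), Icam1 (-0.09), and Nfkbia (0.08), with adjusted p from 0.68 to 0.87 (edgeR).

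**Figure D4:**
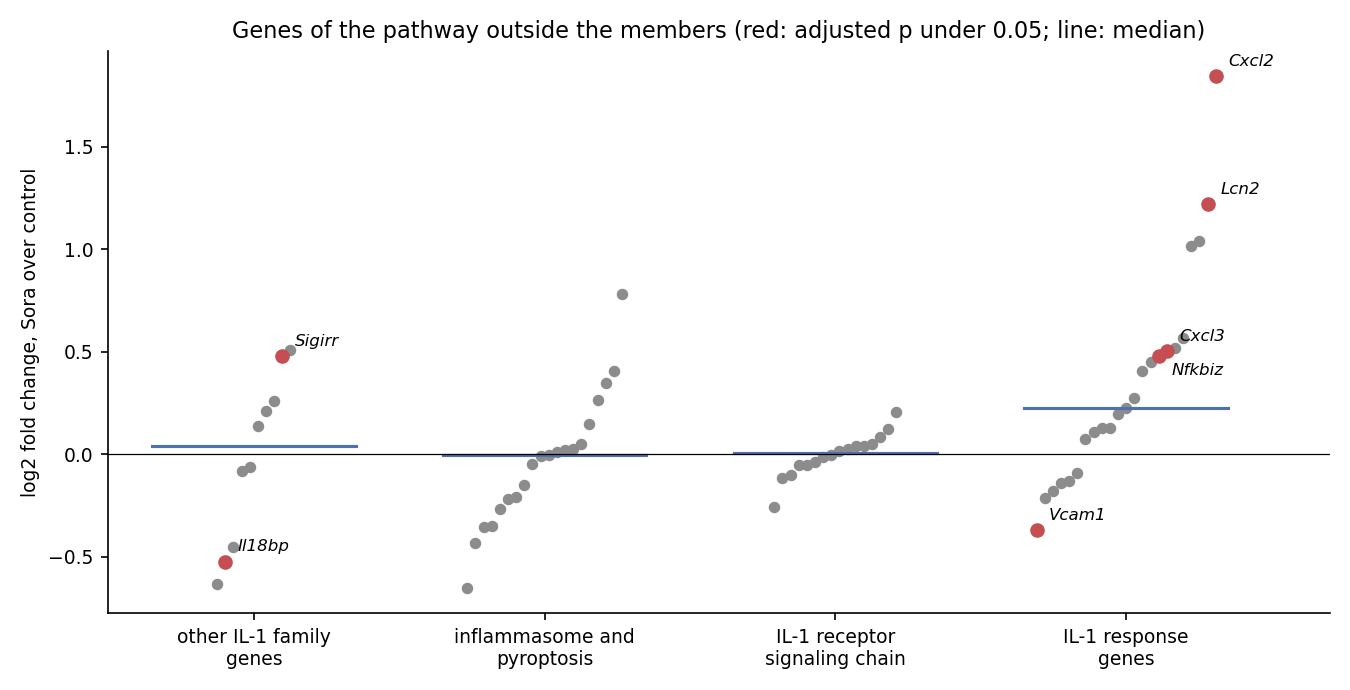
Log2 fold change of Sora over control tumors (vertical axis) for each tested gene of 4 lists of the pathway, with red points and names for an adjusted p under 0.05 and a blue line for the median of the list. Il18bp and Sigirr are called in the first list, no gene in the middle lists, and Cxcl2, Lcn2, Cxcl3, Nfkbiz, and Vcam1 among the response genes.

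Markers of cells that make or read these cytokines were summed as CPM, reads scaled to the size of each library. Neutrophils are a source of Il1b, Il1rn, and Il1r2 transcripts. The 12 neutrophil markers summed to 79.9, 85.4, and 70.7 CPM in control tumors and 160, 103, and 110 CPM in Sora tumors, so that each Sora tumor was above each control tumor, and the ratio of the group means was 1.58. Of 8 tested markers 1 rose, S100a9, where 1.94% of all genes rose (log2 fold change 1.21, adjusted p = 0.042, and 0.14 without Sora tumor 4, edgeR). S100a8 (1.09) and Csf3r (0.50) had adjusted p of 0.11 and 0.072 (edgeR). Another 4 markers, Ly6g among them, had too few reads to be tested. The granule genes Ngp (-1.23, adjusted p = 0.69) and Ltf (-0.39, adjusted p = 0.77, edgeR) had negative log2 fold changes. Of the defining granule genes, Elane and Mpo were at 0 in some tumors. Sora tumor 2 had the highest neutrophil sum, Il1b, and Il1r2 of all tumors, whereas Il1rn was highest in Sora tumor 4. The part of neutrophil number in the values of Il1b, Il1rn, and Il1r2 was not tested.

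Macrophages and monocytes express Casp1, Il1b, Nlrp3, and Il18bp. Their 12 markers summed to 2187, 2362, and 1972 CPM in control tumors and 1756, 1961, and 1703 CPM in Sora tumors, with each Sora tumor below each control tumor and a ratio of the means of 0.831. Of the 12 markers 1 passed, where 1.34% of all genes fell. Mertk, a receptor for apoptotic cells, fell (log2 fold change -0.45, adjusted p = 0.031, and 0.16 without Sora tumor 4, edgeR). Csf1r had a log2 fold change of -0.38 (adjusted p = 0.067, edgeR), whereas Cd14 (0.45) and Itgam (0.24), which neutrophils carry too, had positive values with adjusted p of 0.16 and 0.13. The ratio of the mean FPKM of Casp1 was 0.732. The part of macrophage and monocyte number in the fall of Casp1 and Il18bp was not tested.

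The 9 mast cell and basophil markers in the table overlapped between the groups in sum (149 to 202 CPM in control and 153 to 219 CPM in Sora tumors), and so did the 11 T cell, Treg, and ILC2 markers (227 to 245 and 230 to 251 CPM). Among them Hdc, the histamine-forming enzyme (log2 fold change 1.01, adjusted p = 0.046), and Areg, an epidermal growth factor relative that IL-33 can induce (1.80, adjusted p = 0.0087), rose, and Klrg1 fell (-1.28, adjusted p = 0.046, all in edgeR). None of these 3 passed without Sora tumor 4 (adjusted p = 0.11, 0.058, and 0.19, edgeR). Of the 11 T cell, Treg, and ILC2 markers 8 had a negative log2 fold change, with a median of -0.31. Areg and Hdc are also made outside these cells. The defining mast cell genes Cpa3 and Cma1 overlapped between the groups, as Il1rl1 did, with log2 fold changes of 0.04 and 0.22. Fibroblast and endothelial cells and keratinocytes are sources of Il33, Il1a, and Il18. The 8 fibroblast markers were lower in sum in each Sora tumor (7685 to 7960 CPM in control and 5444 to 6843 CPM in Sora tumors). Of the 8 genes, 7 had a negative and 1 a positive log2 fold change. The groups did not overlap in CPM for 3 of them, where 22.2% of all genes were separated. None of the 8 passed in edgeR, where 3.29% of all genes did (3 at an unadjusted p under 0.05, where 17.2% of all genes did). The 7 endothelial markers overlapped (262 to 301 and 209 to 289 CPM). The 8 keratinocyte and skin markers all had a positive log2 fold change, with a median of 0.45, and none passed in edgeR (1 at an unadjusted p under 0.05). Their sums overlapped between the groups, at 1084, 325, and 402 CPM in control tumors 1, 3, and 4 and 970, 725, and 689 CPM in Sora tumors 2, 3, and 4. Control tumor 1 and Sora tumor 2 had the most of these markers. In FPKM they were also the highest of their group for 7 of the 10 genes (Il1a, Il1b, Il33, Il18, Il1r2, Il1rl1, and Nlrp3). In CPM, however, Il1a was highest in Sora tumor 4 (9.57, against 9.33 in Sora tumor 2). Il1rl1 in CPM was highest of the control tumors in tumor 3 (12.3, against 11.8 in control tumor 1). The share of all genes with this order was not computed. The part of skin in these values was not tested.

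**Figure D5:**
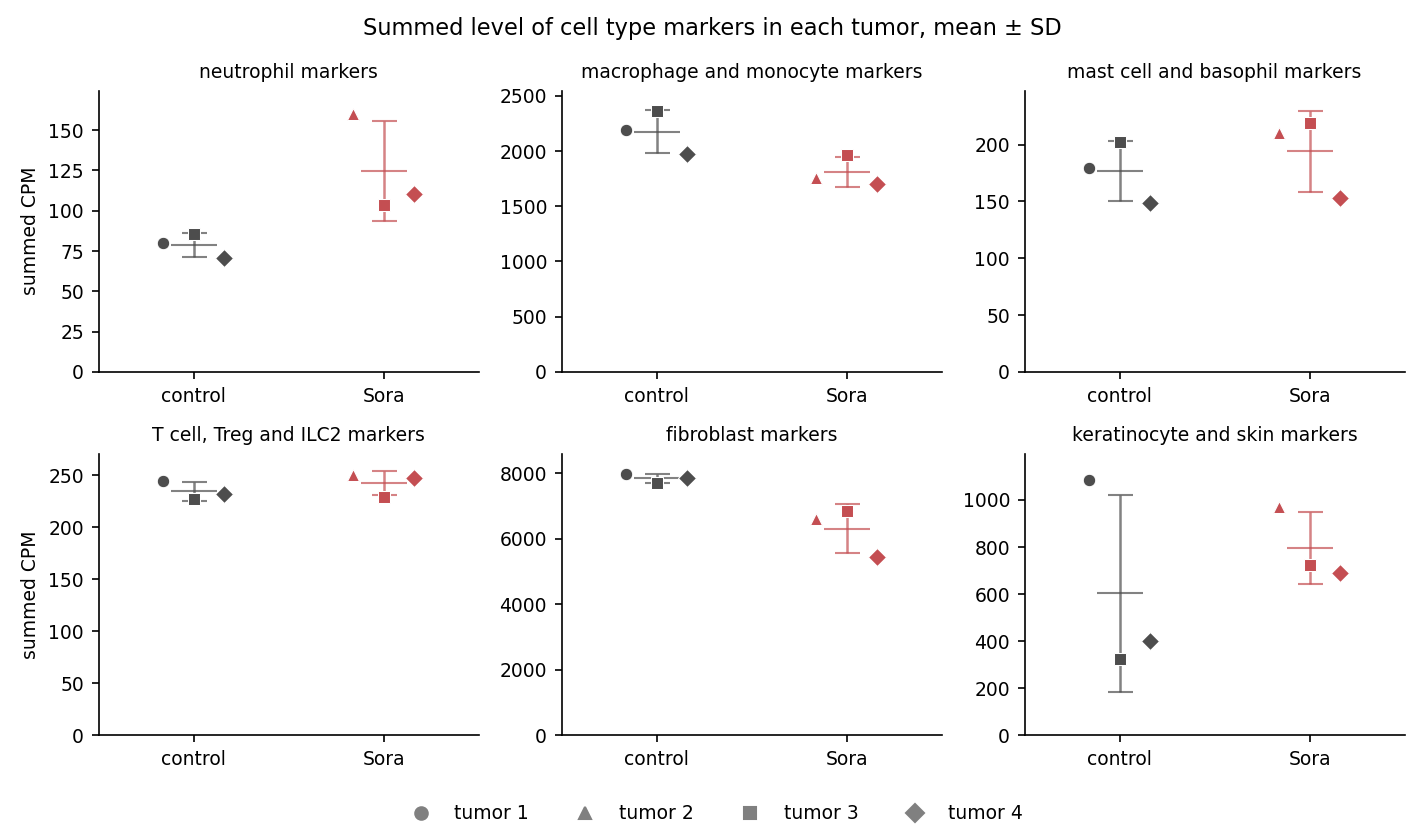
Summed CPM (vertical axes, each starting at 0) of 6 lists of cell type markers in 3 control and 3 Sora tumors, with points for tumors and bars for the mean and SD. Neutrophil markers are above all control tumors in each Sora tumor, macrophage and monocyte markers and fibroblast markers are below them, and the other 3 lists overlap.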

How the data were processed

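RNA of 3 control and 3 Sora tumors was analyzed. Per the file headers there is 1 column per tumor. The authors deposited counts, whole reads per gene, and FPKM, the same reads scaled to gene length and library total. The submitters' processing notes list fastp, HISAT2, HTSeq, DESeq2, and GRCm39, whereas the paper names Bowtie2 and GRCm38. The annotation and strand setting are not given in the sources used here. Genes were matched by symbol, and coordinates and promoters are those of RefSeq for GRCm38.p6.

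For Sora tumor 4, whole reads were recovered by multiplying FPKM with lengths that the other 5 tumors gave. All 20951 recovered counts came within 0.0001 of a whole number, the same step returned each known tumor exactly, and 342 genes without a length (512 reads) were set to 0. Genes reaching 10 counts in 3 or more tumors were tested with edgeR 4.0.16 (TMM, glmQLFit, glmQLFTest, R 4.3.3). CPM use the TMM-scaled totals. DESeq2 1.42.0, limma 3.58.1 (voom, and log2(FPKM + 1) or log2(FPKM + 0.1)), other scalings and filters, a replicate block, and leaving out each tumor were alternatives. DESeq2 on 5 tumors was added after seeing the data. Scripts were tested on simulated data. The members and lists were chosen with earlier results of these data known. Of the lists, genes past the threshold and the 3 smallest p were named, and others as illustration after their values were seen. Il1rapl1, Il1rapl2, and Tpsab1 are not analysed here.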

Additional observations from a re-analysis of the deposited data

How the results depend on the processing

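Over 18 alternatives each, Il1a, Il1b, Il1rn, Il1r2, and Il33 kept a positive and Il18, Nlrp3, and Casp1 a negative log2 fold change. Il1r1 turned negative with the replicate block (-0.055), without Sora tumor 2 (-0.091), and without control tumor 3 (-0.038), within -0.091 to 0.13 with 1 tumor left out, and Il1rl1 turned positive without Sora tumor 4 (0.17 in edgeR, 0.16 in DESeq2), control tumor 1 (0.0031), or control tumor 3 (0.035). Of the 10 genes, 3 were called in DESeq2, 2 with other scalings, with limma voom, with 10 counts in every tumor, and in DESeq2 on 5 tumors, 1 (Casp1) with log2(FPKM + 1) or log2(FPKM + 0.1), 0 with log2(FPKM + 1) of all genes (3 at an unadjusted p under 0.05) and with the replicate block (4), 4 without a filter, and 0 to 5 with 1 tumor left out. Over all genes, calls numbered 543, and 1194 in DESeq2, 1147 without a filter, 286 and 252 with log2(FPKM + 1) and log2(FPKM + 0.1), 0 with log2(FPKM + 1) of all genes (limma, 3143 at an unadjusted p under 0.05), 125 with the replicate block, and 5 to 1145 with 1 tumor left out. The 2 other IL-1 family genes became 3 in DESeq2 and without a filter, 1 in DESeq2 on 5 tumors, 0 with FPKM and with the block, and 0 to 2 with 1 tumor left out. The count of inflammasome genes was 1 (Txnip) in DESeq2 on 6 or 5 tumors, in limma voom, without a filter, and with 10 counts in every tumor, and 0 to 2 with 1 tumor left out. The 5 response genes became 7 without a filter, 6 in DESeq2 and with total counts, 5 in DESeq2 on 5 tumors, 3 in limma voom, 2 with log2(FPKM + 1) or log2(FPKM + 0.1), 0 with log2(FPKM + 1) of all genes, 1 with the block, and 0 to 7 with 1 tumor left out. The cause of these changes was not tested. The ratio of Il1rn to Il1b (log2 difference -0.36 to 0.010) turned sign without Sora tumor 2, and that of Il18bp to Il18 (-0.30 to 0.15) without Sora tumor 2 or control tumor 3. Deviations of tumors that share number 3 or 4 had correlations of -0.033 and -0.074 over genes. Tumors of unlike numbers had correlations of -0.16 to 0.26. Deviations were taken from means of only 3 tumors, so this cannot tell whether the numbers pair the tumors.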

Other observations

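Genes with the most similar profile to Il1rn and Il1r1, the ligand and the receptor with the highest mean FPKM, were looked up by the root-mean-square distance between standardized log2(CPM + 1) values over the 6 tumors, among genes with a mean of at least 5 CPM. Nearest to Il1rn were Mctp2 (distance 0.047), Pnma5 (0.059), and Ifrd1 (0.063). Mctp2 had 6.15, 5.87, and 6.01 FPKM in control tumors and 9.39, 6.99, and 10.6 FPKM in Sora tumors, so that Sora tumor 4 was highest and tumor 3 lowest of its group, as in Il1rn. Nearest to Il1r1 were Lgi2 (0.098), Hdac4 (0.19), and Syt13 (0.22), which had their highest value in Sora tumor 2. The distances are a description over 6 tumors.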
